A study of Mus musculus with 10 samples.

Results

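The 10 genes described here are the ID genes Id1, Id2, Id3 and Id4 and 6 genes of the BMP-SMAD pathway, Bmpr1a, Bmpr2, Smad1, Smad5, Smad6 and Smad7. They were taken by symbol from a count table of 24620 entries, and all 10 were found in it. ID proteins are helix-loop-helix proteins without a DNA-binding region. They pair with E proteins and so keep E proteins from pairing with muscle transcription factors such as MyoD. BMP ligands bring together type I receptors (Bmpr1a) and type II receptors (Bmpr2), which phosphorylate SMAD1 and SMAD5. Phosphorylated SMADs enter the nucleus with SMAD4 and activate targets, among them the ID genes and the inhibitory Smad6 and Smad7. In activated muscle stem cells (MuSCs), BMP signalling and ID proteins are known for keeping myoblasts proliferating and for delaying differentiation.

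The study asked what the ion channel kinase TRPM7 does in MuSCs. Every mouse in both groups carried Pax7 CreERT2/+ and the Rosa26 YFP reporter. At Trpm7 itself the controls were Trpm7+/+ and the Trpm7 cKO mice Trpm7 flox/flox. Pax7 drives the Cre, which is active only after tamoxifen, given daily for 5 days to adult mice of 7 to 20 weeks on a C57BL6 background. Muscle was injured with cardiotoxin (CTX), and 3 days later 3000 YFP+ cells per library were sorted, with 5 libraries in each group. Trpm7 cKO replicates 4 and 5 share a number in their library names whose meaning is not stated, so the p-values measure the spread between libraries, which may in part be technical.

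Libraries were read from the 3′ ends of transcripts and counted with molecular identifiers, 914361 to 1097709 counts in control and 205986 to 581121 in Trpm7 cKO. Values are normalized CPM, counts divided by the library's scaled total and given per 1e6, scaled by the TMM method over the 7753 genes that passed a filter on low counts. Trpm7 itself was counted at 66.6 to 90.1 CPM in control and 46.4 to 101 in Trpm7 cKO (log2 fold change -0.09, edgeR adjusted p = 0.723). The sources used here do not name the deleted exons, and counts taken at the 3′ end do not check a deletion elsewhere in the gene. The study reported the deletion from Trpm7 mRNA in freshly isolated MuSCs and from PCR. It reported the deficiency from TRPM7 staining of MuSCs on myofibers. Pax7, the defining MuSC transcription factor, was at 206 ± 33.7 CPM in control and 474 ± 122 in Trpm7 cKO (SD, n = 5 each). MuSC markers did not move as one. Of 14 tested, 8 were higher at an edgeR adjusted p under 0.05, Pax7 among them. Myod1, Itga7 and Peg3 were lower, and 3 did not pass. Summed over 30 leukocyte markers, CPM ranged from 441 to 712 in control and from 1629 to 7297 in Trpm7 cKO. Summed over 16 endothelial markers, the ranges were 9.65 to 91.5 and 153 to 872. Fewer cells of a type and less RNA per cell cannot be told apart in such bulk libraries.

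The GC-rich motif GGCGCC is known as a binding sequence of BMP-activated SMADs. The pentamer CAGAC is known as a general SMAD motif. The 250 bases before the annotated starts were searched for both motifs on both strands, with RefSeq promoter entries (GRCm38.p6) for 8 of the 10 genes. GGCGCC, which reads the same on both strands, was found in the windows of Id2, Id4, Bmpr1a, Bmpr2 and Smad5, against 9.59% of all 32851 promoters. That share is per promoter entry and was not matched for base content. Smad5 had several windows, and the matches of Smad5 and Bmpr2 lay in annotated exons. CAGAC was found in the windows of Id3 and Smad5, against 42.2% of all. The match is shown, in capitals and 5′ to 3′ on the gene's strand, for the genes in which it lay outside annotated exons, since these 3 genes moved differently: Id2 fell, Id4 rose and Bmpr1a did not pass the test.
Id2 (chr12:25096306-25096335, minus strand): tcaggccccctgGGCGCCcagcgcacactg
Id4 (chr13:48260956-48260985, plus strand): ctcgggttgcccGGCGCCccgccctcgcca
Bmpr1a (chr14:34502727-34502756, minus strand): tgcgcgcgcgccGGCGCCtcttgctcgccc
Counted from the RefSeq starts, the motif starts 231 bases before that of Id2, 148 before that of Id4 and 198 before that of Bmpr1a. In Id2 and Bmpr1a the motif lies inside the GENCODE gene spans given below, which begin further upstream. A match is a description of the letters and was not tested as a site.

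Within the ID family, Id1 and Id2 were lower and Id3 and Id4 higher in Trpm7 cKO. Among the other members, the receptor Bmpr2 and the inhibitory Smad7 were higher. Bmpr1a, Smad1 and Smad5 did not pass the test. Smad6 was not tested, since it reached the filter's level in 0 control and only 4 Trpm7 cKO libraries. In all, 4 of the 9 tested members were called higher and 2 lower at an edgeR adjusted p under 0.05. Of all 7753 genes tested, 24.6% were called higher and 24.1% lower. Groups did not overlap for 3 of the 9 (Id2, Id4 and Smad7), against 34.5% of all genes. Only Smad7 of these 9 also passed a log2 fold change of 1.5, which 12.0% of all genes did. The members' median log2 fold change was 0.45, and that of all genes -0.01. Id4 and Smad7 reached the filter's level of 13.4 CPM in 1 and 2 of the 5 control libraries and in every Trpm7 cKO library, so they passed mainly through the group in which they were high. With no filter all 10 members were tested, 5 called higher and 2 lower. Of 14 MuSC markers tested, 8 were called higher and 3 lower, so scaling on them lowers other genes by construction and cannot decide which calls hold. Scaled on these MuSC markers, which moved the median of all genes by -0.44 on the log2 scale, Id1, Id2 and Smad7 kept their calls. Id3, Id4 and Bmpr2 were then at 0.14, 0.67 and 0.26 (edgeR adjusted p = 0.549, 0.0751 and 0.284), and Bmpr1a and Smad1 turned below 0 without passing the test.

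**Figure D1:**
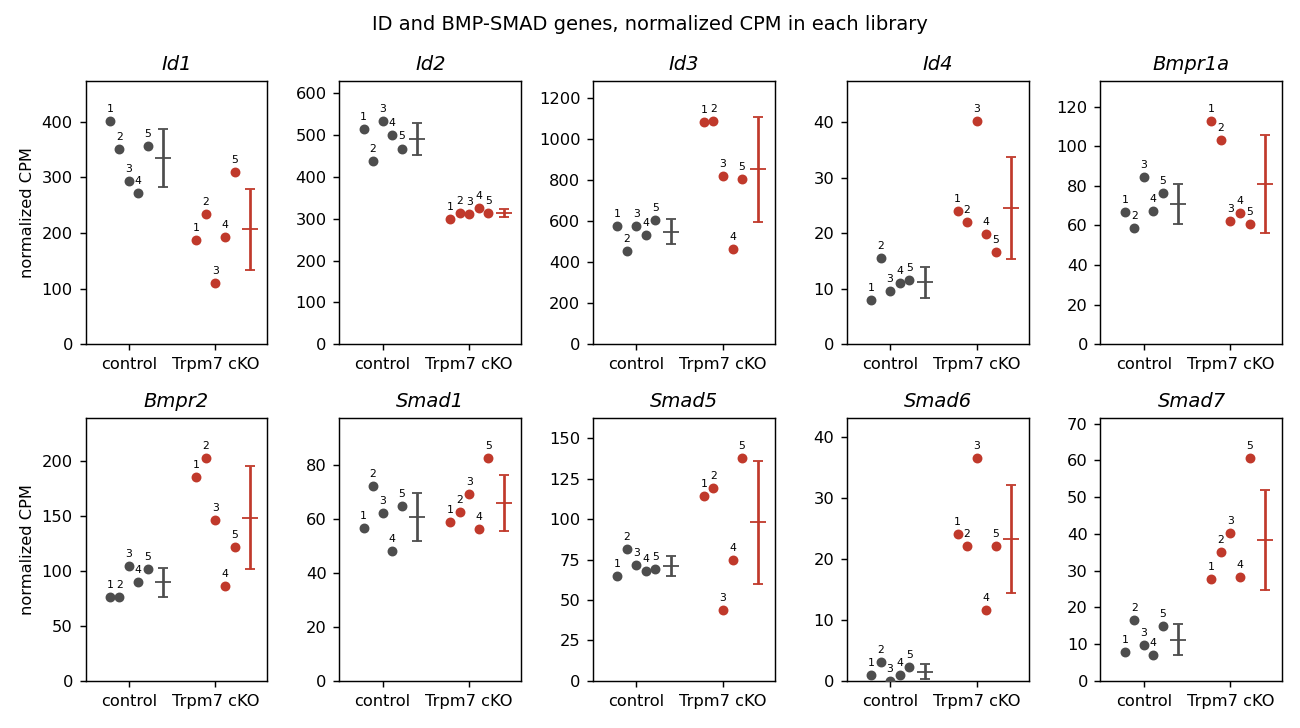
Normalized CPM (vertical axes, starting at 0) of the 10 genes in each control and Trpm7 cKO library. Points are libraries with their replicate numbers, and the bars at the side are the mean and SD of 5. Id2, Id4, Smad6 and Smad7 do not overlap between the groups, while Id3 and Bmpr2 overlap through Trpm7 cKO replicate 4.

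Id1 (chr2:152736251-152737410) is the ID gene most often used as a readout of BMP signalling. It was at 401, 351, 294, 272 and 355 CPM in control replicates 1 to 5 and at 187, 234, 109.6, 192 and 309 in Trpm7 cKO replicates 1 to 5. Trpm7 cKO replicate 5 lay within the control range and replicate 3 was the lowest of all libraries. The log2 fold change was -0.72 (SE 0.19, edgeR adjusted p = 0.00429).

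Id2 (chr12:25093799-25097140) encodes an inhibitor of E proteins that is also known to bind the retinoblastoma protein. Its control libraries stood at 514, 439, 533, 501 and 468 CPM and its Trpm7 cKO libraries at 299, 313, 311, 326 and 315. The Trpm7 cKO values kept within a narrow band below every control value, with a mean of 313 ± 9.68 against 491 ± 37.6 (SD, n = 5 each). The fall was 1.57-fold (log2 fold change -0.65, SE 0.12, edgeR adjusted p = 2.3e-04).

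Id3 (chr4:136143497-136145755) is a further BMP target known in muscle stem cells. It was at 579, 452, 576, 532 and 604 CPM in control and at 1085, 1088, 822, 466 and 806 in Trpm7 cKO. All Trpm7 cKO libraries but replicate 4 lay above every control library. Id3 rose 1.56-fold (log2 fold change 0.64, SE 0.19, edgeR adjusted p = 0.00746). Id4 (chr13:48261228-48266026), which can itself pair with other ID proteins, was at low counts. Its values were 7.96, 15.5, 9.65, 11.04 and 11.6 CPM in control and 24.0, 22.1, 40.2, 19.9 and 16.6 in Trpm7 cKO. The lowest Trpm7 cKO library was above the highest control library by about 1 CPM, and the log2 fold change was 1.1 (SE 0.30, edgeR adjusted p = 0.00457).

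The mean summed ID level was close in the groups, while the shares of its members were not. Id1 to Id4 together were at 1385 ± 97.7 CPM in control and 1397 ± 263 in Trpm7 cKO (SD, n = 5 each), with the lowest and highest library both in Trpm7 cKO (1004 and 1656). Each count stands for a transcript 3′ end, so these shares need no scaling by length. Id3 made up 39.5% ± 2.35 of the ID counts in control and 60.0% ± 8.91 in Trpm7 cKO. Id1 went from 24.2% ± 3.32 to 14.98% ± 5.27, Id2 from 35.5% ± 2.37 to 23.2% ± 5.66, and Id4 from 0.818% ± 0.261 to 1.82% ± 0.797. The share of Id3 was above every control library in all 5 Trpm7 cKO libraries, from 46.4% in replicate 4 to 68.0% in replicate 1.

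Ratios of counts within a library do not depend on the scaling between libraries. They are given for pairs of related members as a description with no test, since the pairs were chosen after the values had been seen. The ratio of Id1 to Id3 ran from 0.510 to 0.776 in control and from 0.133 to 0.413 in Trpm7 cKO, a mean log2 difference of -1.34. The ratio of Id2 to Id3 ran from 0.774 to 0.970 and from 0.276 to 0.701, a difference of -1.23. Neither ratio overlapped between the groups. The ratio of Id1 to Id2 overlapped between the groups, with a log2 difference of -0.12.

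**Figure D2:**
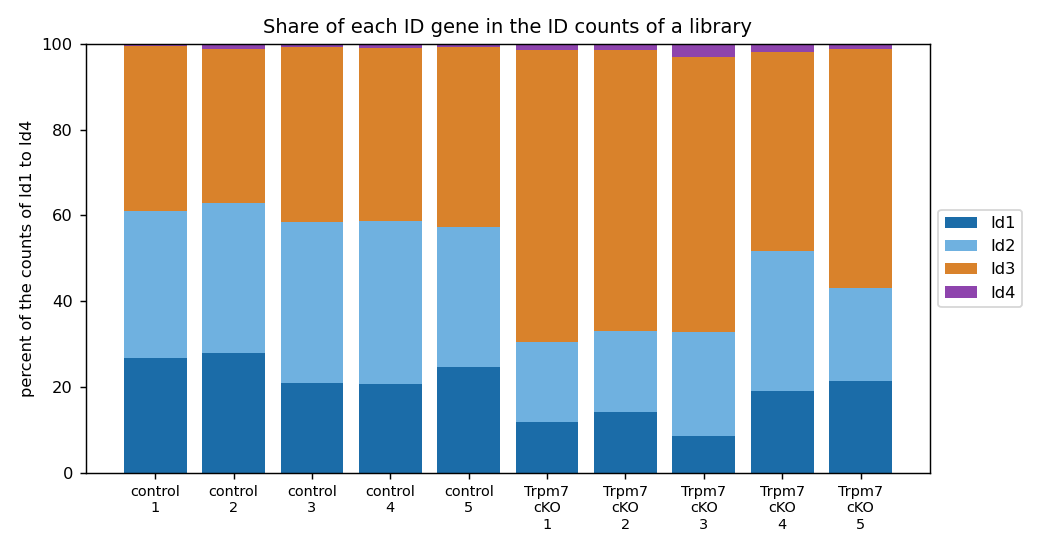
Percent of the ID counts of each library (vertical axis) that came from Id1, Id2, Id3 and Id4, stacked to 100, for 5 control and 5 Trpm7 cKO libraries. Id3 takes 36.0 to 42.0% in control and 46.4 to 68.0% in Trpm7 cKO, and Id1 and Id2 take correspondingly less.

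Of the 2 receptors, the type II receptor rose and the type I receptor did not pass the test. Bmpr2 (chr1:59763400-59879014) was at 76.6, 76.4, 104, 89.3 and 102 CPM in control and at 185, 202, 146, 86.2 and 121 in Trpm7 cKO. Every Trpm7 cKO library except replicate 4 was above the control range. The rise was 1.68-fold (log2 fold change 0.74, SE 0.20, edgeR adjusted p = 0.00416). Bmpr1a (chr14:34410734-34503341), also called ALK3, was at 66.6, 58.9, 84.7, 67.3 and 76.4 CPM in control and at 113, 103, 62.1, 66.3 and 60.7 in Trpm7 cKO. Trpm7 cKO replicates 1 and 2 were above every control library and the other 3 were within the control range. The log2 fold change of 0.25 (95% interval -0.12 to 0.63) had an edgeR adjusted p of 0.293. The count ratio of Bmpr1a to Bmpr2 differed by -0.52 on the log2 scale, with overlapping groups.

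The receptor-activated SMADs carry the BMP signal from the receptors to DNA. Smad1 (chr8:79338395-79399518) was at 56.7, 72.3, 62.2, 48.2 and 64.8 CPM in control and at 59.1, 62.6, 69.4, 56.3 and 82.8 in Trpm7 cKO. The groups lay over each other, with a log2 fold change of 0.07 (95% interval -0.28 to 0.42, edgeR adjusted p = 0.829). Of the last 500 bases of the Smad1 transcript, 7.0% was shared with other transcripts, among them the gene model Gm8458, so its counts carry that uncertainty. Smad5 (chr13:56703010-56742377) was steady in control, at 64.6, 81.6, 71.9, 68.3 and 69.5 CPM, and spread widely in Trpm7 cKO, at 115, 120, 43.8, 74.6 and 138. Replicate 3, one of the smaller libraries, was below every control library, and replicates 1, 2 and 5 were above. The log2 fold change of 0.45 (95% interval 0.04 to 0.86 before adjustment) had an edgeR adjusted p of 0.0824. Without Trpm7 cKO replicate 3 it was 0.60 (edgeR adjusted p = 0.0114), and without replicate 4 it was 0.54 (edgeR adjusted p = 0.0386). The ratio of Smad1 to Smad5 overlapped between the groups (log2 difference -0.24).

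The inhibitory SMADs, which block receptors and receptor-activated SMADs as negative feedback, had the largest differences among the members. Smad7 (chr18:75367529-75395935) was at 7.96, 16.5, 9.65, 7.03 and 15.05 CPM in control and at 27.7, 35.0, 40.2, 28.2 and 60.7 in Trpm7 cKO. No libraries overlapped, and replicate 5, the smallest library, was the highest. The rise was 3.11-fold (log2 fold change 1.64, SE 0.30, edgeR adjusted p = 1.6e-04). Smad6 (chr9:63953076-64022059), the SMAD inhibitor that acts mainly on BMP signals, had counts of 1, 3, 0, 1 and 2 in control and 13, 12, 10, 7 and 4 in Trpm7 cKO. Control libraries were the deeper ones, and in CPM the means were 1.48 ± 1.22 and 23.3 ± 8.88 (SD, n = 5 each) without overlap (2-sided exact permutation p = 0.00794, the smallest possible). Pooled over libraries, 7 counts in control against 46 in Trpm7 cKO gave a ratio of 14.6 after scaling (exact 95% interval 6.55 to 38.4, counting error only). In a fit with no filter, Smad6 had a log2 fold change of 3.56 (SE 0.53, edgeR adjusted p = 3.8e-10).

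The leukocyte and endothelial marker levels moved with the genotype and also varied among the Trpm7 cKO libraries, so they are given beside the members. All 22 tested of 30 leukocyte markers and all 3 tested of 16 endothelial markers were called higher in Trpm7 cKO. The filter weighs on these counts, since 16 of the 22 and all 3 reached its level in fewer than 5 control libraries, and 7 and 1 of them in none. Whether tested or not, 24 of the 30 leukocyte and 8 of the 16 endothelial markers had every Trpm7 cKO library above every control library, and 0 had the reverse. The share over all table entries was not counted, and of all genes tested 34.5% did not overlap in either direction. Ptprc, the pan-leukocyte antigen CD45, was at 8.003 ± 4.70 CPM in control and 56.7 ± 26.1 in Trpm7 cKO, and the endothelial cadherin gene Cdh5 was at 4.07 ± 3.41 and 79.9 ± 72.2 (SD, n = 5 each). Of the MuSC markers, 8 of 14 tested were higher and 3 lower, and of the FAP markers (fibroadipogenic progenitors) 6 of 8 higher and 1 lower. Cd3e, a T cell marker, had no count in control and 1 in Trpm7 cKO. Over Trpm7 cKO replicates 1 to 5 the summed leukocyte level was 4191, 1629, 4282, 7297 and 6865 CPM and the summed endothelial level 188, 153, 289, 474 and 872.

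Over the same Trpm7 cKO replicates 1 to 5, Smad7 was at 27.7, 35.0, 40.2, 28.2 and 60.7 CPM. Id3 was at 1085, 1088, 822, 466 and 806 CPM and Bmpr2 at 185, 202, 146, 86.2 and 121. With the leukocyte markers as a covariate, Id3 and Bmpr2 stayed called, at log2 fold changes of 1.76 and 2.01 (edgeR adjusted p = 0.0155 and 0.00674). With the endothelial markers as a covariate they were at 1.00 and 1.19 (edgeR adjusted p = 0.0255 and 0.0138). Id1, Id2, Id4 and Smad7 lost their calls with either covariate while their fold changes kept their direction. With the leukocyte markers these were -0.81, -0.60, 0.97 and 1.12 on the log2 scale (edgeR adjusted p = 0.408, 0.379, 0.550 and 0.447). With the endothelial markers they were -0.97, -0.63, 1.21 and 1.12 (edgeR adjusted p = 0.0556, 0.0739, 0.143 and 0.153). Each covariate was the mean log2 CPM of the tested markers alone, 22 leukocyte and 3 endothelial, many of which passed the filter mainly through Trpm7 cKO. Groups did not overlap for 20 of the 22 and 2 of the 3, so these fits have little to separate markers from genotype. The part of other cells in these results was not tested.

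**Figure D3:**
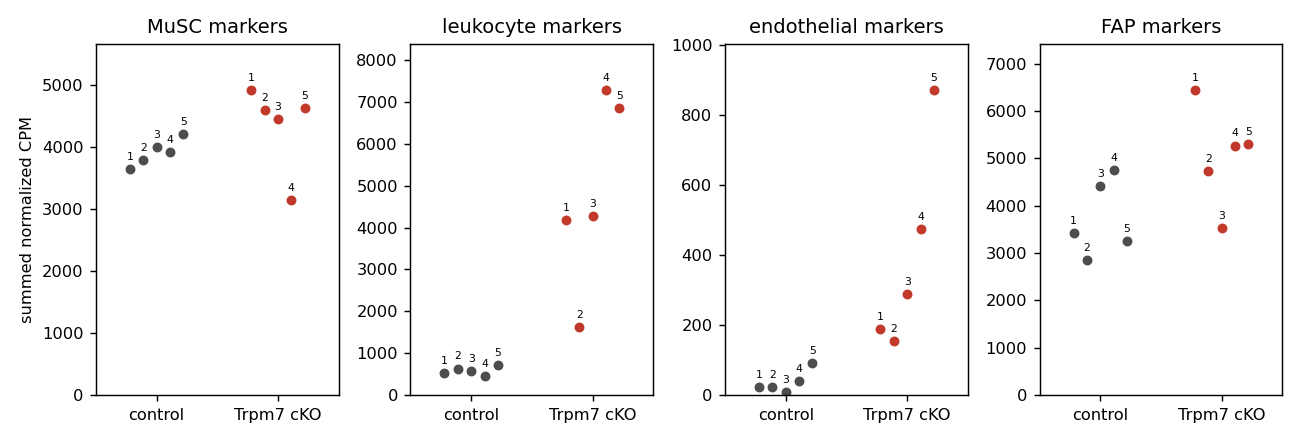
Summed normalized CPM (vertical axes, starting at 0) of the MuSC, leukocyte, endothelial and fibroadipogenic progenitor (FAP) markers in each library, with replicate numbers. The leukocyte and endothelial sums are higher in every Trpm7 cKO library than in any control library, and the MuSC sum is lowest in Trpm7 cKO replicate 4.

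The rest of the BMP pathway was read from lists of 73 further genes, of which 63 were in the table and 38 were tested. Of these, 21 were called higher and 6 lower, beside 24.6% and 24.1% of all genes tested, with a median log2 fold change of 0.70 beside -0.01. The counts of each list below stand beside the same shares. Reaching the filter's level in fewer than 5 control libraries were 9 of the 38, and in fewer than 5 Trpm7 cKO libraries 3. Bmp4, Eng and Chrdl2 reached it in no control library and so were tested only because they were high in Trpm7 cKO. They are among the 21 and are given below as values, without a test. With no filter, 24 were called higher and 7 lower. Groups did not overlap for 20 of the 38, beside 34.5% of all genes tested. Tested or not, 19 of the 63 had every Trpm7 cKO library above every control library and 6 had the reverse. The share over all table entries was not counted.

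Both tested ligands of 7 in the table were called higher, though Bmp4 passed the filter only through Trpm7 cKO. Bmp4, a main ligand of Bmpr1a, was at 9.89 ± 2.33 CPM in control and 135 ± 53.1 in Trpm7 cKO (SD, n = 5 each) without overlap. Bmp2 was at 11.7 ± 2.87 and 28.1 ± 11.2 (log2 fold change 1.24, edgeR adjusted p = 0.00270). Bmp2 reached the filter's level in 1 control library and in all 5 Trpm7 cKO libraries. Of 5 receptors and co-receptors tested, 2 were higher and 1 lower. Those higher include Eng, which passed the filter only through Trpm7 cKO. The type I receptor Acvr1 (ALK2) fell from 264 ± 66.0 to 83.0 ± 18.6 CPM without overlap (log2 fold change -1.61, edgeR adjusted p = 1.5e-06). The co-receptor gene Rgmb rose by 0.46 on the log2 scale (edgeR adjusted p = 0.0192). The co-receptor gene Eng, which endothelial cells express strongly, was at 1.69 ± 0.612 CPM in control and 28.3 ± 12.1 in Trpm7 cKO.

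Smad4, the partner of all receptor-activated SMADs, was at 74.6 ± 7.87 CPM in control and 79.5 ± 18.9 in Trpm7 cKO (log2 fold change 0.12, edgeR adjusted p = 0.604). Smad2 and Smad3, which carry TGF-beta and activin signals, rose by 0.74 and 1.05 on the log2 scale (edgeR adjusted p = 0.0218 and 0.00101). Of 5 secreted inhibitors and modulators tested, 4 were called higher and none lower. Fstl1, the activin and BMP antagonist Fst and the chordin partner Twsg1 had log2 fold changes of 2.47, 1.27 and 0.98 (edgeR adjusted p = 1.8e-08, 6.1e-04 and 0.00136). The fourth, the BMP antagonist Chrdl2, passed the filter only through Trpm7 cKO. Chrdl2 was at 2.96 ± 1.95 CPM in control and 29.9 ± 21.7 in Trpm7 cKO. Fstl1 was at 99.5 ± 34.0 CPM in control and 552 ± 88.0 in Trpm7 cKO.

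Of 13 intracellular SMAD regulators tested, 7 rose, 6 did not pass the test and none fell. Skil, a repressor of SMAD transcription that TGF-beta signals induce, went from 50.04 ± 6.20 to 176 ± 29.4 CPM without overlap (log2 fold change 1.80, edgeR adjusted p = 7.0e-08). The SMAD phosphatase gene Ctdspl, the nuclear envelope SMAD inhibitor Lemd3 and the ubiquitin ligase Nedd4l rose by 1.28, 1.1 and 0.88 on the log2 scale (edgeR adjusted p = 5.0e-04, 0.00489 and 0.00275). Smurf1 and Smurf2, ligases that degrade BMP SMADs, had log2 fold changes of -0.07 and 0.15 (edgeR adjusted p = 0.880 and 0.522). Of 3 other BMP targets tested, Hey1 rose by 0.92 and Gata2 fell by 1.88 on the log2 scale (edgeR adjusted p = 0.0104 and 7.1e-06), and Atoh8 was at 0.70 (edgeR adjusted p = 0.0628).

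Of the 63 pathway genes in the table, 38 were tested. Among the rest, too low to be tested, Bmp6, Gdf6, Acvrl1, Bambi and Zfp423 had every Trpm7 cKO library above every control library. These genes were picked out after their values were seen, and the share over all untested entries was not counted. Bambi, a decoy receptor that is itself a BMP target, was at 2.98 ± 2.25 CPM in control and 17.9 ± 7.87 in Trpm7 cKO, and Acvrl1, an endothelial type I receptor, at 0.844 ± 1.40 and 11.7 ± 7.47 (SD, n = 5 each).

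**Figure D4:**
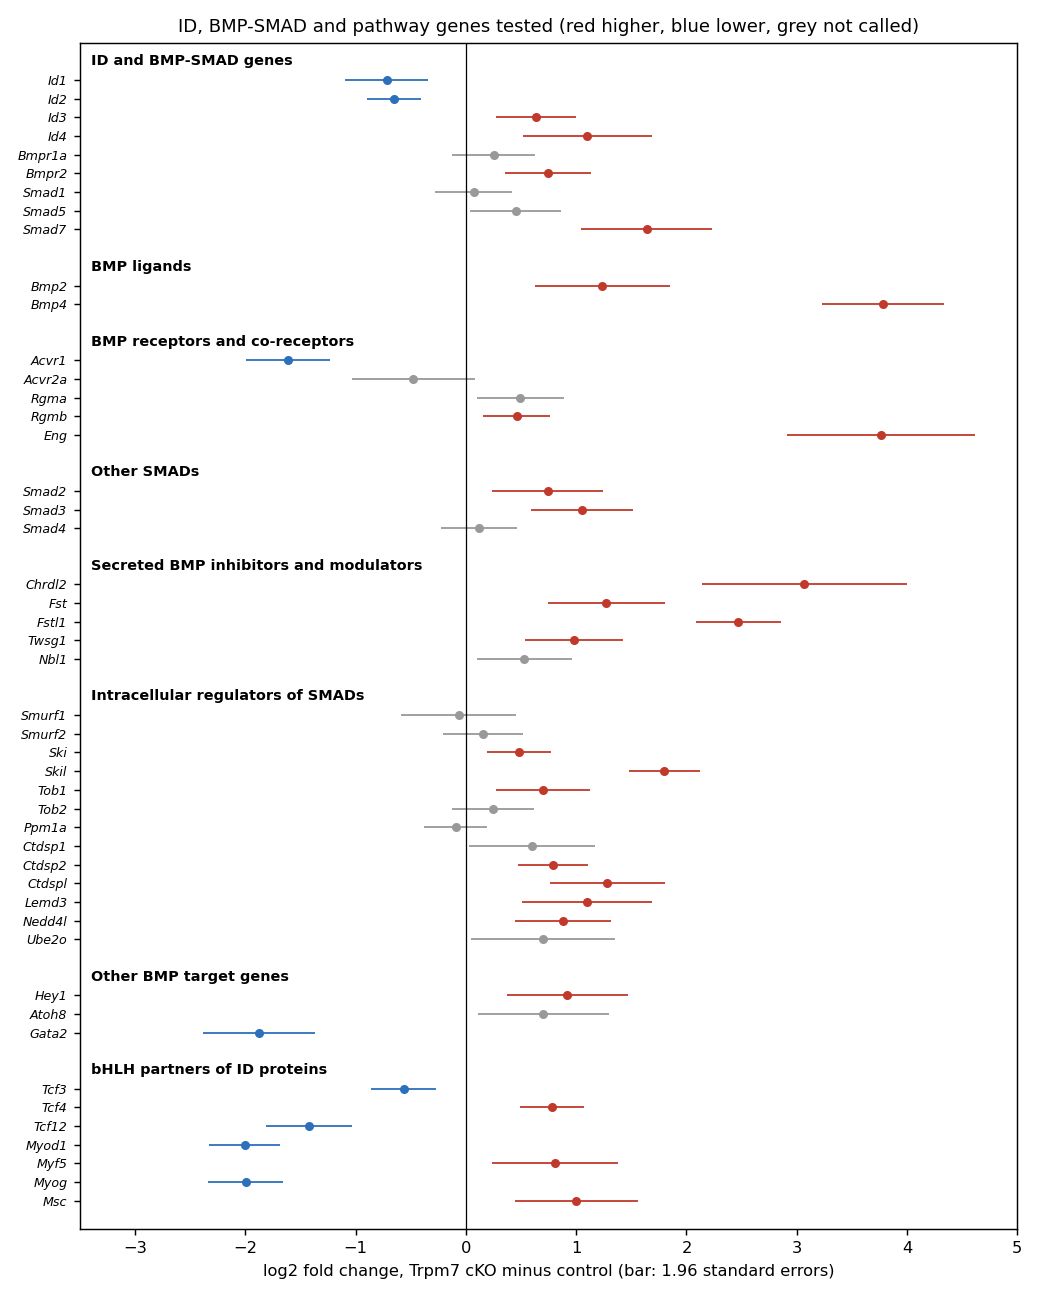
Log2 fold change, Trpm7 cKO minus control (horizontal axis), of the 9 tested ID and BMP-SMAD genes and the 38 tested genes of the pathway lists, with nominal 95% intervals before adjustment. Red genes were called higher, blue lower, and grey ones did not pass the test. Bmp4, Eng and Chrdl2 were tested only because they were high in Trpm7 cKO. Id1 and Id2 lie on the opposite side of 0 from Id3 and Id4, and no inhibitor or regulator was called lower.

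The partners of ID proteins were divided as the ID genes were. All 7 tested of 8 helix-loop-helix partners were called, 3 higher and 4 lower. The E protein gene Tcf4 rose from 468 ± 35.4 to 810 ± 174 CPM (SD, n = 5 each; log2 fold change 0.78, edgeR adjusted p = 2.3e-04). The E protein genes Tcf12 and Tcf3 fell by 1.42 and 0.56 on the log2 scale (edgeR adjusted p = 9.2e-06 and 0.00421), Tcf12 from 485 ± 124 to 177 ± 50.9 CPM. None of the 3 overlapped between the groups. Their summed level was 1083 ± 105 CPM in control and 1076 ± 165 in Trpm7 cKO. Tcf4 made up 43.6% ± 5.99 of the E protein counts in control and 74.9% ± 5.93 in Trpm7 cKO, and Tcf12 44.3% ± 7.42 and 16.8% ± 5.10.

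Of the muscle factors that pair with E proteins, Myod1 and Myog, which drive commitment and differentiation, fell by 2.01 and 2.00 on the log2 scale (edgeR adjusted p = 1.8e-08 and 3.5e-08). Myod1 went from 744 ± 111 to 181 ± 36.6 CPM and Myog from 507 ± 33.4 to 128 ± 37.8. Myf5, expressed before differentiation, rose by 0.81 (edgeR adjusted p = 0.0357) with overlapping groups. Msc, a repressor of MyoD targets, rose by 1.00 (edgeR adjusted p = 0.00772). Myod1, Myf5, Msc and Chrdl2 also stand in the list of MuSC markers.

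The genes most like each tested member in their profile over the 10 libraries were found from the root mean square (RMS) difference in mean-centred log2 CPM, among 6705 genes of at least 20 CPM. Likeness over 2 groups largely follows the group difference and is a description. Id3 and Bmpr2 were the closest pair of members, 0.14 apart, and each was among the 3 genes nearest to the other. Mpdz, a scaffold protein gene, was the nearest gene to both (0.13 from Id3 and 0.12 from Bmpr2). The nearest to Id2 were Cluh and Fxr1, at 0.07 and 0.09, and Id2 was followed more closely than any other tested member. Those of Id1 were Psmg3, Klhl12 and Ppargc1b, from 0.17 to 0.20. For Id4 they were Igf2bp2, Phldb1 and Tcirg1, from 0.15 to 0.21. Creb5, Prrc2a and Stat3 were nearest to Smad7, from 0.14 to 0.19. Among the members that were not called, Bmpr1a was nearest to Znrf3, Ptpn14 and Vcam1 (0.13 to 0.15), Smad1 to Sox4, Chd4 and Ngdn (0.09 to 0.11) and Smad5 to Nkap, Erbin and Rprd2 (0.19 to 0.21).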

How the data were processed

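MuSC libraries were prepared by CEL-Seq2. Per the labels and methods, the authors trimmed reads with Trim Galore 0.6.10, aligned them to GRCm38 with HISAT2 2.2.1, assigned them to genes with featureCounts 2.0.6, collapsed molecular identifiers with UMI-tools 1.1.4 and used DESeq2 1.30.1. The annotation release and strand setting are not given in the sources used here. The deposited values are raw counts per gene, so lowly counted genes (Id4, Smad6, Smad7) are imprecise, most of all in the smaller Trpm7 cKO libraries.

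Counts were filtered (filterByExpr, minimum count 10, minimum total 15), scaled by TMM and tested over all genes with the robust quasi-likelihood test of edgeR 4.0.16 in R 4.3.3, with Benjamini-Hochberg adjustment. Duplicated libraries were looked for, and every pair differed by more than sampling noise. The step was tested on simulated data: 80.6% of genes changed by 1 on the log2 scale and 100% of those changed by 2 were called. The simulation gave all genes 1 common dispersion (0.033) and changed 200 genes, fewer than were called here. These shares do not say how often a change in low-count members such as Id4 and Smad7 would be called. Fold intervals are nominally 95%, from a normal approximation with a standard error taken from the F statistic. They are therefore somewhat narrower than the test itself would give. Promoters are from RefSeq and gene positions from GENCODE on GRCm38. DESeq2 1.42.0 was an alternative. The named genes were all members, per pathway list at most the 4 called genes with the largest change, and Tcf3, Tcf4, Tcf12, Smad4, Myod1, Myf5 and Myog. The members, lists and tests were chosen with earlier results of these data known. One gene of the likeness comparison is not reported here.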

Additional observations from a re-analysis of the deposited data

How the results depend on the processing

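With DESeq2, RLE factors, total counts alone and no filter, the members and pathway genes called higher and lower stayed within 1.5 times the counts reported. With the replicate number as a block, 4 members were higher and 2 lower, and 20 and 6 pathway genes. Same-numbered libraries, centred within each group, correlated at -0.12 to 0.18. Only control replicate 5 was closest to the Trpm7 cKO library of its own number. Whether a shared batch links same-numbered libraries was not tested. Leaving out 1 library at a time gave 5 to 6 members higher (Smad6 was then tested) and 2 lower, and 18 to 23 pathway genes higher and 6 lower. Scaling on MuSC markers shifted the median of all genes by -0.44 and the higher share of all calls to 24.8%, against 51.6% with RLE factors and 59.0% with total counts alone. It left 1 member higher and 2 lower, and 7 pathway genes higher and 8 lower. Of its 14 markers, 8 were themselves called higher, which lowers other genes by construction, and Myod1, Myf5, Msc and Chrdl2 are also pathway genes. Id3, Id4 and Bmpr2 were then at 0.14, 0.67 and 0.26 and not called, and Bmpr1a and Smad1 turned to -0.22 and -0.35. Smad1, which was not called, was also at -0.13 with no filter, -0.25 with the leukocyte covariate and -0.033 without both smallest Trpm7 cKO libraries, and -0.0045 to 0.15 leaving out 1 library. Thinned to the smallest library, 2 members were higher, since Id4 and Smad7 then fell below the filter, and 2 lower. Of the pathway genes, 13 were then higher and 6 lower. The leukocyte covariate left 2 members higher and 0 lower, with 6 pathway genes higher and 2 lower. The endothelial covariate left 2 and 0, with 11 pathway genes higher and 4 lower. Past both thresholds (adjusted p and a log2 fold change of 1.5) were 1 member higher and 0 lower, and 5 pathway genes higher and 4 lower. Smad5 was called with total counts alone (0.54), with a minimum count of 30 (0.56) and without both smallest Trpm7 cKO libraries (0.53). Summing Trpm7 cKO replicates 4 and 5 gave 5 and 2 members. That sum, and leaving out both smallest libraries, were added after seeing the data. The cause of these changes was not tested where no construction is named.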
